A study of Mus musculus with 12 samples.

Results

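The constant genes of the immunoglobulins were followed through epididymal white adipose tissue (eWAT) of 12 obese mice. They are the 10 genes Ighm, Ighd, Ighg3, Ighg1, Ighg2b, Ighg2c, Ighe and Igha of the heavy chain and Igkc and Iglc1 of the light chain, taken by symbol from a count table of 49315 genes. All 10 were found in the table, and 9 of the 10 passed a filter on low counts that left 18702 genes for testing. Ighe did not pass. The family was taken up with its values in these mice already known, so the values of its members are given as a description, without p-values.

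RNA-seq was done on 1 library per mouse, with 3 male mice in each of 4 groups, all of them fed a high-fat diet (HFD, 60% fat) for 12 weeks. Flox mice carried the floxed Mir181a2b2 alleles with no Cre reported in these groups, and KO mice lacked Mir181a2b2 in every tissue. Each genotype was given weekly intraperitoneal injections of vehicle or of methotrexate (MTX) at 1 mg/kg. The methods describe age-matched and cage-matched littermates, and the age at the start was not given. The comparisons ask whether MTX altered the tissue and whether Mir181a2b2 was needed for it. The whole fat depot was sequenced, so in these bulk samples more cells of a type and more RNA per cell cannot be told apart.

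A B cell first makes IgM, and IgD beside it, from the constant genes nearest to the assembled variable segment. Class switch recombination then cuts out the DNA between and joins the same variable segment to a constant gene further downstream, so that the cell makes IgG, IgE or IgA. Plasma cells transcribe these genes at very high levels. Jchain links the subunits of IgM pentamers and IgA dimers, and Pigr carries these polymers across epithelia. Visceral fat holds B cells within its stroma and in lymphoid clusters, beside macrophages and the mesothelium that covers the depot.

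In GRCm38 the heavy-chain constant genes lie on the minus strand of chromosome 12 in the order of use. Ighm is at chr12:113418558-113422730, and counted from its start Ighd begins 6.41 kb downstream, Ighg3 61.5 kb, Ighg1 92.2 kb, Ighg2b 115 kb, Ighg2c 134 kb, Ighe 149 kb and Igha 162 kb downstream, the last at chr12:113254830-113260236. Igkc is on chromosome 6 (chr6:70726435-70726966, plus strand) and Iglc1 on chromosome 16 (chr16:19061618-19062071, minus strand). The 4 IgG genes are alike, and a shared read could be given to the wrong one, so the first 120 bases of their constant regions are shown from the GENCODE M21 transcripts, 5′ to 3′, with capitals at the 39 positions where the 4 genes are not all the same.
Ighg3 (chr12:113361113-113361232, minus strand): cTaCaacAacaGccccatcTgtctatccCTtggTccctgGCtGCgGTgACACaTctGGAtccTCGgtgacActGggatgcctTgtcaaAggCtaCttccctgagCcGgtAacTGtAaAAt
Ighg1 (chr12:113330404-113330523, minus strand): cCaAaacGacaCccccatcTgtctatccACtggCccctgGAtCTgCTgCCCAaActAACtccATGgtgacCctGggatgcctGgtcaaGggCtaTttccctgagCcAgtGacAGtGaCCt
Ighg2b (chr12:113307814-113307933, minus strand): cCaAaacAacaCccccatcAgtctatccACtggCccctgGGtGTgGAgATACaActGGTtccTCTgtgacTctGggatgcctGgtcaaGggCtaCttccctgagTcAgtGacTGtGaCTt
Ighg2c (chr12:113288813-113288932, minus strand): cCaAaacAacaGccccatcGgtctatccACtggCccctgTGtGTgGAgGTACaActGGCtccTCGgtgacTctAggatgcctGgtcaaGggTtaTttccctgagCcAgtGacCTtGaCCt
The same stretch of Igha, whose level the results turn on, and of Ighm, the gene it replaces on switching, is given in lower case.
Igha (chr12:113260117-113260236, minus strand): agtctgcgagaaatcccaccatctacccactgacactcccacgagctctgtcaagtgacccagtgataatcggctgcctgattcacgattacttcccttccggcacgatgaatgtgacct
Ighm (chr12:113422611-113422730, minus strand): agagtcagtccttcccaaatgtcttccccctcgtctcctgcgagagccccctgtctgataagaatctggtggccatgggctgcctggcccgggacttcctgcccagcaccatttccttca

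Of these 120 positions Ighg2b and Ighg2c shared 107, the closest pair, and Ighg1 and Ighg3 shared 90, the most distant. Over whole constant regions Ighg2b and Ighg2c were 76.3% identical, whereas Igha and Ighm were 47.1% identical. No stretch of 100 bases was shared between any pair of the constant genes. Reads of the methods' full length (100 bases) that lie within a constant region therefore differ between all of them by at least 1 base. Reads were trimmed, however, and shorter ones could fit more than 1 gene. How reads that fit more than 1 place were counted is not stated.

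Depth ranged from 19495310 to 23976469 counted reads per library, and the members took 0.0492% to 1.17% of them. Values are counts or CPM, that is, counts scaled by TMM to a common library size. Where no read was found, as many as 3 counts remain possible, equal to between 0.118 and 0.187 CPM over the libraries, for counting error only. The precursors Mir181a-2 and Mir181b-2 of the deleted locus were not counted at all apart from 2 reads of Mir181a-2 in the fourth flox MTX mouse, so the counts do not check the genotypes. All 10 listed adipocyte markers exceeded 3 counts in every library. Summed epididymis markers stood at 1877 to 15988 CPM in the flox vehicle libraries and at 524 CPM in flox MTX replicate 1, against at most 17.9 CPM in the other 8 libraries. Flox MTX replicate 2 stood apart in the members: its heavy-chain constant genes summed to 7868 CPM, whereas the other 11 libraries ran from 402 to 3025 CPM.

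**Figure D1:**
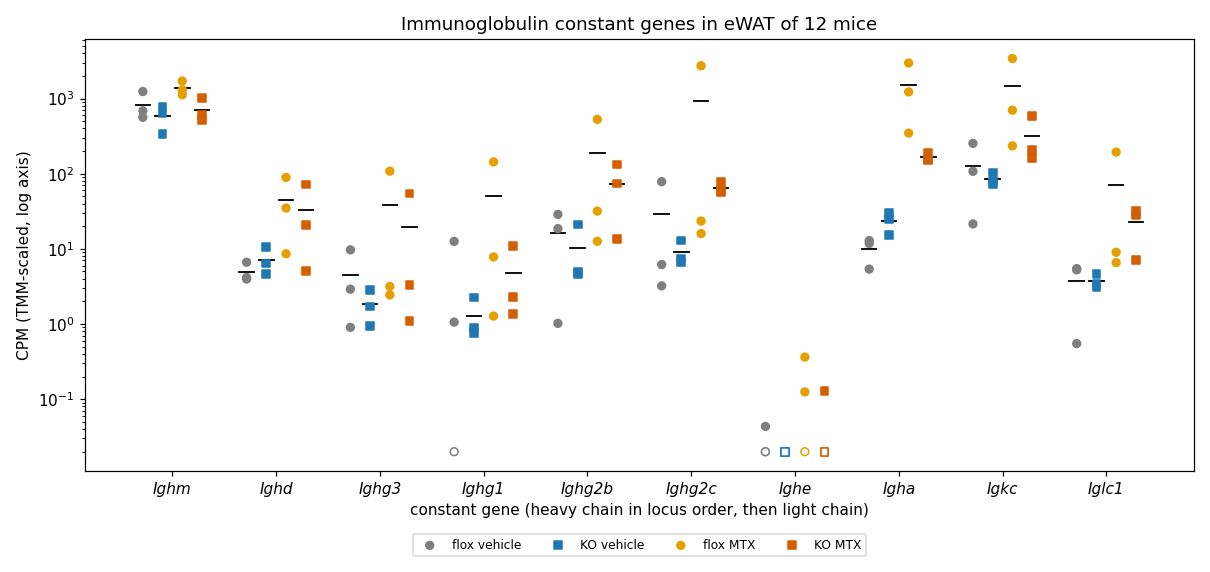
CPM (log axis) of the 10 constant genes in each of the 12 libraries, coloured by group, with the group mean as a bar; open symbols at the bottom are counts of 0, and groups with a 0 have no bar. Igha is the gene whose 6 vehicle libraries (5.37 to 29.8 CPM) and 6 MTX libraries (150 to 2967 CPM) lie farthest apart, and flox MTX replicate 2 is the highest point for most genes.

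Igha, the constant gene of IgA, was low with vehicle and high with MTX in every mouse. Its counts were 273, 137 and 280 in flox vehicle replicates 1, 3 and 4, and 491, 362 and 636 in KO vehicle replicates 1, 2 and 3. With MTX they were 7349, 65349 and 19591 in flox replicates 1, 2 and 4, and 4376, 3556 and 3428 in KO replicates 2, 3 and 4. All 6 MTX libraries were above all 6 vehicle libraries, and every pair of groups that differ in 1 factor was free of overlap. Its mean CPM was 10.04 ± 4.07 (SD, n = 3) in flox vehicle, 23.3 ± 7.34 in KO vehicle, 1513 ± 1333 in flox MTX and 165 ± 22.3 in KO MTX mice. Within the flox MTX group the highest library was 8.55 times the lowest, whereas within the KO MTX group it was 1.27 times the lowest.

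The ratio of the mean Igha CPM with MTX to that with vehicle was 151 in flox mice and 7.07 in KO mice. In the edgeR fit the log2 fold change with MTX was 7.24 ± 0.78 (SE) in flox and 2.82 ± 0.63 in KO mice. Without flox MTX replicate 2 the first of these was 6.30. Igha was 1.21 ± 0.61 higher on the log2 scale in KO than in flox mice under vehicle, and 3.20 ± 0.64 lower in KO than in flox mice under MTX (log2 fold change -3.20). The order of the genotypes in Igha thus turned between vehicle and MTX, as a description. Neither of these genotype differences was called by edgeR.

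Ighm, the constant gene of IgM, was the most abundant heavy-chain constant gene per kb of exon in 11 of 12 libraries and spread less than Igha. Its counts were 15831, 14347 and 26864 in flox vehicle, 15543, 15326 and 7135 in KO vehicle, 23759, 28654 and 27331 in flox MTX and 11897, 23568 and 13718 in KO MTX libraries, in the order of the replicates given above. The CPM means were 829 ± 360 (SD, n = 3), 588 ± 230, 1377 ± 300 and 712 ± 270 in these groups. The vehicle and MTX libraries overlapped in each genotype, and the KO MTX libraries, at 517 to 1020 CPM, lay below the flox MTX libraries, at 1122 to 1708 CPM. The log2 fold change with MTX was 0.73 ± 0.39 in flox and 0.28 ± 0.39 in KO mice. From the lowest library to the highest, over all 12, Ighm ran from 334 to 1708 CPM and Igha from 5.37 to 2967 CPM.

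Ighd, spliced from the same transcript as Ighm in mature naive B cells, followed it only in part. Their log2 CPM had a Pearson r of 0.562 with each other over the 12 libraries. Ighd stood at 3.96 to 6.64 CPM in flox vehicle, 4.58 to 10.6 CPM in KO vehicle, 8.59 to 89.1 CPM in flox MTX and 5.13 to 71.7 CPM in KO MTX libraries. The flox MTX libraries were above the flox vehicle libraries, whereas in KO mice the groups overlapped. Counts of Ighm per count of Ighd were 142 to 187 in flox vehicle libraries and were as low as 14.6 in flox MTX replicate 2 and 14.2 in KO MTX replicate 3, the libraries with the most Ighd. Over the 12 libraries the log2 CPM of Ighd had a Pearson r of 0.969 with Cd79a, a signalling partner of the B cell receptor, and that of Ighm had 0.530. The log2 fold change of Ighd with MTX was 3.17 ± 0.94 in flox and 2.18 ± 0.90 in KO mice. Without flox MTX replicate 2 the value in flox mice was 2.15, and without KO MTX replicate 3 the value in KO mice was 0.85.

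The IgG genes spread widely between the mice of a group. Ighg2c, which C57BL/6 mice use in place of Ighg2a, had counts of 1808, 82 and 134 in flox vehicle, 131, 306 and 159 in KO vehicle, 496, 60175 and 255 in flox MTX and 1291, 1786 and 1385 in KO MTX libraries. The 60175 counts of flox MTX replicate 2 stood far above the 496 and 255 of the other mice of its group, and the highest library there was 171 times the lowest in CPM. The KO MTX libraries, at 56.1 to 77.3 CPM, were even and all above the KO vehicle libraries, at 6.59 to 12.9 CPM. The log2 fold change of Ighg2c with MTX was 4.98 ± 1.82 in flox and 2.84 ± 1.67 in KO mice. Without flox MTX replicate 2 the value in flox mice turned to -0.56.

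Ighg2b had counts of 663, 26 and 403 in flox vehicle, 93, 116 and 450 in KO vehicle, 267, 11625 and 508 in flox MTX and 3050, 1711 and 311 in KO MTX libraries. The groups overlapped in every comparison, and each treated group had its own high mouse, flox MTX replicate 2 and KO MTX replicate 2. The log2 fold change with MTX was 3.57 ± 1.48 in flox and 2.84 ± 1.44 in KO mice. Without flox MTX replicate 2 the value in flox mice was 0.47.

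Ighg1 and Ighg3 were the lowest of the IgG genes. Ighg1 ranged from 0 to 12.6 CPM over the vehicle libraries and from 1.27 to 144 CPM over the MTX libraries. Flox vehicle replicate 4 had 0 counts of Ighg1 among 27888 heavy-chain constant counts, which allows a share of up to 0.0108%, although it had 403 counts of Ighg2b. Ighg3 ranged from 0.902 to 9.71 CPM with vehicle and from 1.09 to 108 CPM with MTX, and only flox MTX replicate 2 (2379 counts) and KO MTX replicate 3 (1262 counts) exceeded the 224 counts of flox vehicle replicate 1. The log2 fold changes with MTX in flox mice, 3.49 ± 1.70 for Ighg1 and 3.07 ± 1.63 for Ighg3, became 0.00 and -0.67 without flox MTX replicate 2. Those in KO mice were 1.89 ± 1.72 and 3.42 ± 1.70, and became 0.48 for Ighg1 and 0.26 for Ighg3 without KO MTX replicate 3. Ighe, the constant gene of IgE, was found in 4 libraries, with 1 count in flox vehicle replicate 1, 8 and 2 counts in flox MTX replicates 2 and 4 and 3 counts in KO MTX replicate 3.

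As a share of heavy-chain constant counts, Igha was a small part in the vehicle libraries and a larger part in each MTX library. It was 1.42%, 0.929% and 1.00% in flox vehicle replicates 1, 3 and 4, and 2.99%, 2.20% and 7.41% in KO vehicle replicates 1, 2 and 3. It was 22.9%, 37.7% and 40.5% in flox MTX replicates 1, 2 and 4, and 21.1%, 10.5% and 17.6% in KO MTX replicates 2, 3 and 4. The 4 groups did not overlap with each other in this share, and their order from low to high was flox vehicle, KO vehicle, KO MTX and flox MTX. The gap between KO MTX and flox MTX was narrow, with a 95% Wilson interval of 20.5% to 21.6% for the highest KO MTX library and of 22.4% to 23.3% for the lowest flox MTX library, and these intervals cover counting error only. The group means were 1.12% ± 0.266 (SD, n = 3), 4.20% ± 2.81, 33.7% ± 9.47 and 16.4% ± 5.37 for flox vehicle, KO vehicle, flox MTX and KO MTX mice. Per kb of exon, which corrects for the length of each gene, the means were 0.787%, 3.03%, 25.4% and 12.2%.

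Ighm made up 82.5% to 97.3% of heavy-chain constant counts in the vehicle libraries and 16.5% to 73.9% in the MTX libraries. Since its level overlapped between vehicle and MTX, this lower share went with more counts of the other genes. The switched isotypes (the 4 IgG genes, Ighe and Igha) summed to 11.6 to 141 CPM with vehicle and to 229 to 6478 CPM with MTX. The sum of the 4 IgG genes was 15.6%, 1.07% and 2.15% of heavy-chain constant counts in flox vehicle, 1.66%, 3.10% and 7.89% in KO vehicle, 2.67%, 44.6% and 1.91% in flox MTX and 21.2%, 14.8% and 9.38% in KO MTX libraries. IgG was thus above 9% in all 3 KO MTX libraries, whereas in flox MTX mice it was below 3% in replicates 1 and 4 and 44.6% in replicate 2.

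**Figure D2:**
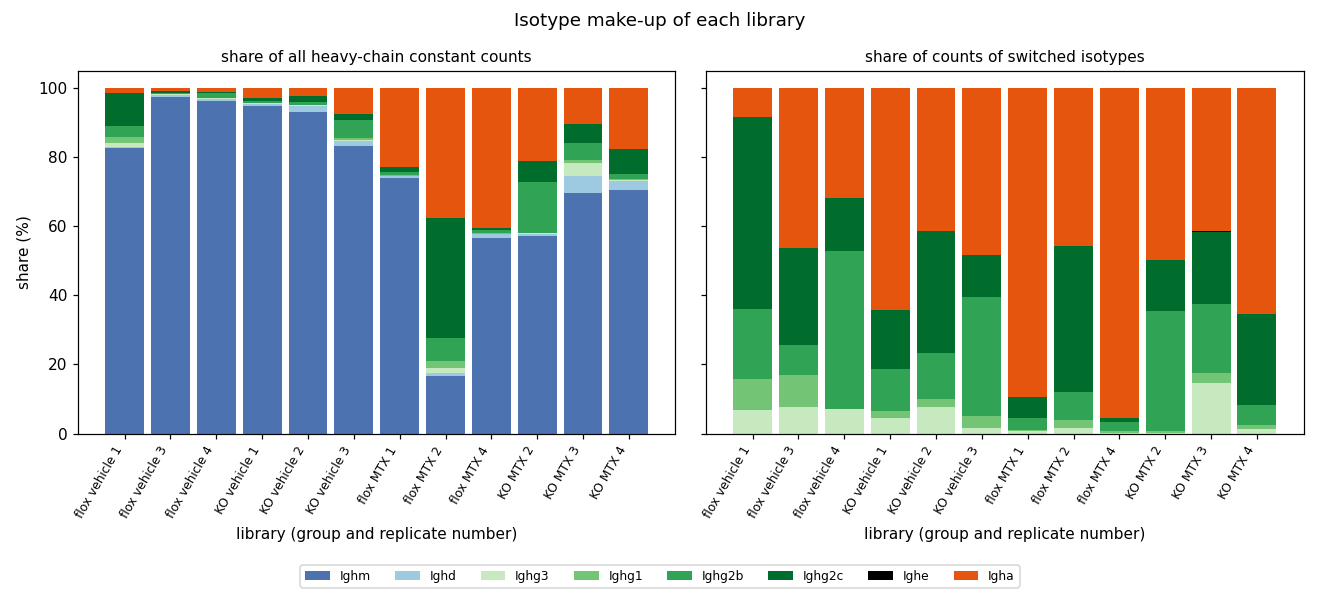
Share (%) of each heavy-chain isotype in each of the 12 libraries, of all heavy-chain constant counts on the left and of the counts of switched isotypes on the right. On the left Igha grows from at most 7.41% with vehicle to at least 10.5% with MTX; on the right flox MTX replicates 1 and 4 are nearly all Igha (89.6% and 95.5%), and KO vehicle and KO MTX libraries cover the same range.

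Among the switched isotypes alone the picture was another. Igha was 8.38%, 46.4% and 31.8% of their counts in flox vehicle replicates 1, 3 and 4, and 89.6%, 45.8% and 95.5% in flox MTX replicates 1, 2 and 4. In KO mice it was 64.3%, 41.5% and 48.4% with vehicle and 49.9%, 41.5% and 65.3% with MTX. The KO groups covered nearly the same range, with means of 51.4% ± 11.7 and 52.2% ± 12.1 (SD, n = 3). The flox groups overlapped as well, because flox MTX replicate 2 (45.8%) stood below flox vehicle replicate 3 (46.4%), a library with only 295 switched counts. By counts, Ighg2c or Ighg2b was the leading IgG gene in each of the 12 libraries.

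**Figure D3:**
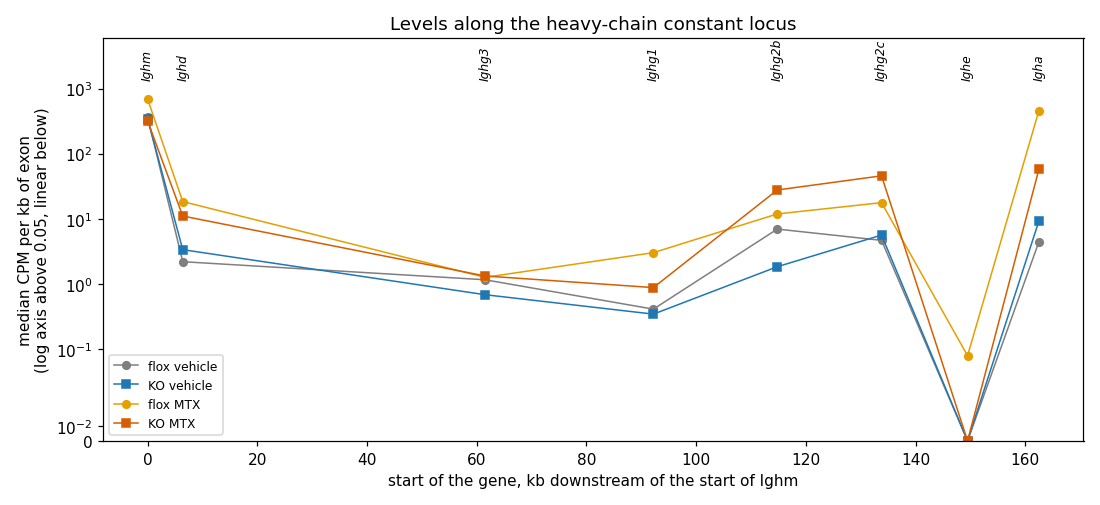
Median CPM per kb of exon (log axis above 0.05) over the 3 libraries of each group against the distance of each heavy-chain constant gene from the start of Ighm. In all 4 groups the median is highest at Ighm and lowest at Ighe, and at Igha the flox MTX and KO MTX groups stand above both vehicle groups.

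Per kb of exon Ighm ranked first in 11 libraries, and Ighg2c ranked first in flox MTX replicate 2. Igha came next after the leading gene in KO vehicle replicates 1 and 3, all 3 flox MTX libraries and KO MTX replicates 2 and 4, and in no flox vehicle library. The order of the remaining genes changed from mouse to mouse, and Ighe ranked last in all 12 libraries.

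Over the 12 libraries the log2 CPM of Igkc, the kappa constant gene, had a Pearson r of 0.857 with Igha, 0.867 with Ighg2c and 0.629 with Ighm, as a description over libraries that share the group differences. Igkc had counts of 5835, 547 and 2332 in flox vehicle, 1582, 2450 and 1565 in KO vehicle, 4963, 74970 and 11184 in flox MTX and 4753, 13457 and 3727 in KO MTX libraries. Its CPM overlapped between vehicle and MTX in flox mice, because flox vehicle replicate 1 (253 CPM) exceeded flox MTX replicate 1 (234 CPM), and did not overlap in KO mice (73.3 to 104 against 163 to 583 CPM). The log2 fold change with MTX was 3.51 ± 1.03 in flox and 1.89 ± 0.97 in KO mice. Iglc1, a lambda constant gene, stood at 0.549 to 5.46 CPM in the 6 vehicle libraries and at 6.56 to 194 CPM in the 6 MTX libraries, and beside Igha it was the only member with no overlap between these sets of 6. Its log2 fold change with MTX was 4.22 ± 1.28 in flox and 2.58 ± 1.21 in KO mice.

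Lambda counts (Iglc1, Iglc2 and Iglc3) were 4.19% to 14.9% of light-chain constant counts. Within lambda the make-up was a matter of the single mouse: Iglc1 held 88.4% of lambda counts in KO MTX replicate 2, with 736 counts against 61 of Iglc2 and 36 of Iglc3, whereas in the other 11 libraries it held 22.2% to 52.9%. The same mouse had the highest Ighg2b of its group. Iglc2 and Iglc3 are 94.1% identical and could share reads, and Iglc1 is 67.4% identical to Iglc3.

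Each antibody holds as many light as heavy chains, and the ratio of Ighm to Igkc per kb of exon varied over a wide range. It was 0.765, 7.40 and 3.25 in flox vehicle, 2.77, 1.76 and 1.29 in KO vehicle, 1.35, 0.108 and 0.689 in flox MTX and 0.706, 0.494 and 1.04 in KO MTX libraries. Ighm exceeded Igkc in 7 of 12 libraries per kb. Flox vehicle replicate 3, with the fewest light-chain counts, had 14347 counts of Ighm beside 547 of Igkc. Counts of Ighm per count of Cd79a ranged from 18.8 in KO MTX replicate 3 to 293 in KO vehicle replicate 1.

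**Figure D4:**
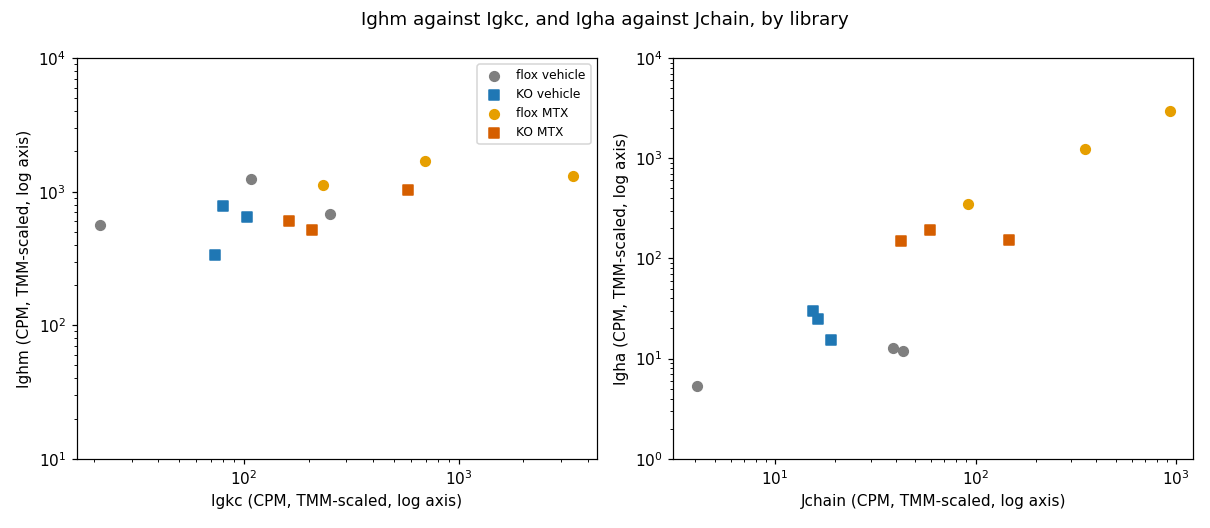
CPM (log axes) of Ighm against Igkc (left) and of Igha against Jchain (right), 1 point per library, coloured by group. Ighm stays between 334 and 1708 CPM while Igkc runs from 21.5 to 3403 CPM, and the 6 MTX libraries lie above the 6 vehicle libraries for Igha.

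Jchain, which joins the subunits of polymeric IgM and IgA, was set beside the members. Its counts were 1004, 104 and 844 in flox vehicle, 326, 449 and 331 in KO vehicle, 1954, 20529 and 5626 in flox MTX and 1365, 3407 and 977 in KO MTX libraries. Jchain rose with MTX in flox mice (log2 fold change 3.99 ± 0.95, edgeR Benjamini-Hochberg adjusted p = 0.0169) and stood 2.29 ± 0.89 higher in KO mice (adjusted p = 0.526). Counts of Igha per count of Jchain were 0.272 to 1.32 in flox vehicle, 0.806 to 1.92 in KO vehicle, 3.18 to 3.76 in flox MTX and 1.04 to 3.51 in KO MTX libraries. The flox MTX libraries lay close together in this ratio although their Igha spanned 8.55-fold in CPM. Over the 12 libraries the log2 CPM of Jchain had a Pearson r of 0.979 with Igkc and of 0.903 with Igha, as a description over libraries that share the group differences.

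In the comparison of MTX with vehicle in flox mice, 5 of the 9 members tested were called (adjusted p under 0.1, with a change of 1.5-fold or more). They were Igha, Ighg2c, Iglc1, Igkc and Ighd, all of them higher with MTX. Of all 18702 genes tested 24.2% were called in either direction, 1513 of them higher and 3015 lower. The 9 log2 fold changes were all above 0, with a median of 3.51 against 0.05 over all genes. Igha, Ighd and Iglc1 had no overlap and were higher with MTX, which 10.9% of all genes were. Without flox MTX replicate 2 only Igha was called. Without flox vehicle replicate 3 only Igha was called too. Nothing is read from these counts, since the members were chosen on such values.

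In the comparison of MTX with vehicle in KO mice, none of the 9 members and 0% of all genes tested were called by edgeR. At an unadjusted p below 0.05 there were 2 members and 1491 genes, and DESeq2 called 1 member, Igha, and 281 genes. The 9 log2 fold changes were all above 0, with a median of 2.58 against -0.01 over all genes. Igha, Ighg2c, Igkc and Iglc1 had no overlap and were higher with MTX, against 11.2% of all genes. Without KO MTX replicate 3 Ighm turned to -0.08. Over the 6 MTX and 6 vehicle libraries together, Igha and Iglc1 had no overlap and were higher with MTX, against 0.642% of all genes.

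**Figure D5:**
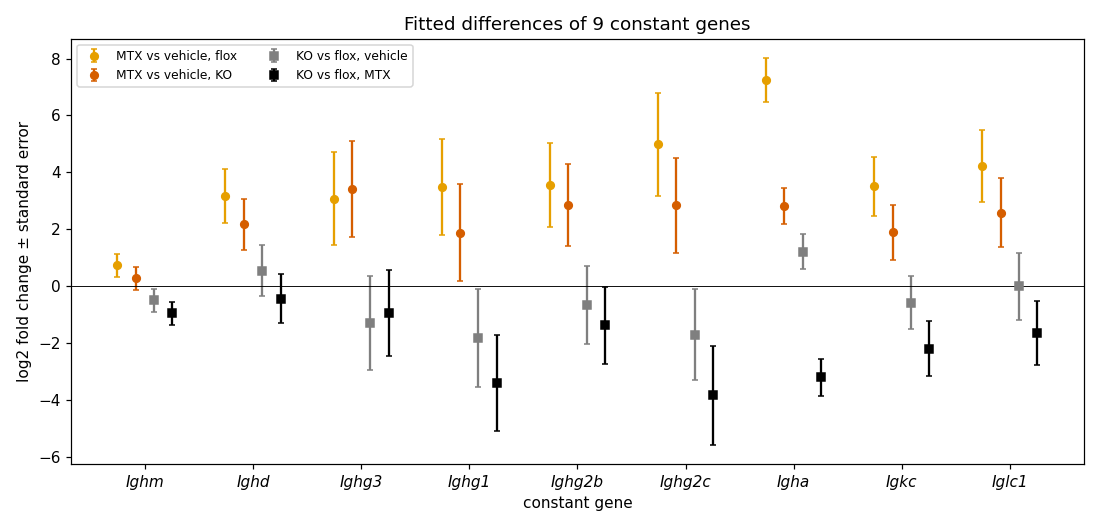
Fitted log2 fold changes with their standard errors for the 9 members tested, in 4 comparisons that share libraries. The values of MTX against vehicle lie above 0 in both genotypes, those of KO against flox under MTX lie below 0, and Igha and Ighm have the shortest error bars.

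Between the genotypes under vehicle, none of the 9 members was called by edgeR, at an unadjusted p below 0.05 as well, and DESeq2 called 1 (Igha), while 31.7% of all genes tested were called. The median log2 fold change of the members was -0.57 against -0.06 over all genes. Igha was the only member without overlap (higher in KO mice), whereas 48.1% of all genes had none in either direction. This comparison also separated the epididymis markers, of which 10 of 12 tested fell in KO mice, and the macrophage markers, of which 10 of 10 rose (summed level 469 to 908 CPM in flox vehicle and 2782 to 4571 CPM in KO vehicle libraries). Their part in the values of the members was not tested.

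Between the genotypes under MTX, all 9 log2 fold changes were below 0, with a median of -1.64 against -0.05 over all genes. None of the 9 members and 0% of all genes were called by edgeR. The lowest edgeR adjusted p over all genes was 0.104, just above the limit of 0.1. With each library left out, 0 to 4064 of all genes were called. At an unadjusted p below 0.05 there were 4 members and 4576 genes, and DESeq2 called 2 members, Igha and Ighm, and 2769 genes. Igha and Ighm were lower in KO mice without overlap, against 26.8% of all genes in either direction. Without flox MTX replicate 2 the values of Ighd, Ighg1, Ighg2b, Ighg2c, Ighg3 and Iglc1 turned positive (0.10 for Ighg1 to 2.81 for Ighg3), whereas those of Igha, Ighm and Igkc stayed negative.

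The interaction of genotype and MTX was the log2 fold change with MTX in KO mice less that in flox mice. It called 1 of the 9 members (Igha, -4.41 ± 0.88) and 0.989% of all genes tested, 168 above 0 and 17 below. Of the 9 values 8 were below 0, with a median of -1.60 against -0.05 over all genes, and Ighg3 stood at 0.34 ± 2.19. The call of Igha was lost when any 1 of flox vehicle replicates 1 or 3, any KO vehicle library, flox MTX replicate 2 or any KO MTX library was left out. Over all alternatives its value stayed between -4.89 and -3.43.

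The other genes of the pathway came from 3 lists, of the switch machinery, of the signals that direct switching, and of the assembly, transport and receptors of antibodies, with 97 genes in all, of which 96 were in the table and 89 were tested. With MTX in flox mice 25 rose and 2 fell, that is, 27 of 89 were called. Beside them 24.2% of all 18702 genes tested were called, 1513 higher and 3015 lower. With the replicate block 8 were called. Leaving out flox vehicle replicate 3 gave 9 calls, and leaving out flox MTX replicate 2 gave 15. Of the machinery 1 of 36 rose, Batf (1.98 ± 0.37, edgeR adjusted p = 0.00742), a transcription factor that acts in B cells, T cells and dendritic cells.

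Of the switch signals 13 of 30 rose and 1 fell with MTX in flox mice, beside 1513 and 3015 of all 18702 genes tested. Among them Tnfrsf17, the receptor BCMA of plasma cells, rose by 2.01 ± 0.59 (edgeR adjusted p = 0.0358), from 8 to 11 counts with vehicle to 12, 69 and 16 with MTX. Its vehicle and MTX libraries in KO mice stood at 10 to 21 and at 8 to 13 counts. The one that fell was Aldh1a1, an enzyme that makes retinoic acid (-1.19 ± 0.27, edgeR adjusted p = 0.0150). Of assembly, transport and receptors 11 of 23 rose and 1 fell, with Jchain as the largest rise, together with Mzb1, a chaperone of antibody-secreting cells (2.62 ± 1.02, edgeR adjusted p = 0.0951), and Cd79a (2.63 ± 0.99, adjusted p = 0.0859). Mzb1 had 114, 53 and 47 counts with vehicle and 36, 1040 and 123 with MTX in flox mice, and Cd79a had 166, 75 and 122 with vehicle and 126, 1496 and 377 with MTX. The groups overlapped for both genes, and neither was called without flox MTX replicate 2. Pigr fell by 1.91 ± 0.57 on the log2 scale (edgeR adjusted p = 0.0393) at only 13, 13 and 19 counts with vehicle and 6, 2 and 2 counts with MTX. In KO mice Pigr was lower with MTX too, at 9 to 14 counts with vehicle and 1 to 6 with MTX.

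With MTX in KO mice none of the 89 pathway genes was called by edgeR, 6 had an unadjusted p below 0.05, and DESeq2 called none. Under vehicle 24 pathway genes rose and 7 fell in KO against flox mice, so that 31 of 89 were called. Beside them 31.7% of all 18702 genes tested were called, 2598 higher and 3326 lower. The called pathway genes included 14 of 30 signals that rose. In the third list they included the Fc receptor Fcgr4, which binds IgG (3.41 ± 0.73, edgeR adjusted p = 0.00651). Aldh1a1 had the largest fall (-2.12 ± 0.28, edgeR adjusted p = 0.00276). Fc receptors are also made by macrophages, and the macrophage markers given above moved in the same direction. The part of macrophages in these calls was not tested. Under MTX none of the 89 was called between the genotypes by edgeR, 20 had an unadjusted p below 0.05, and DESeq2 called 13. The interaction called none by edgeR, 9 had an unadjusted p below 0.05, and DESeq2 called 2, Aldh1a1 and Tnfrsf17.

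Markers of the cells that could carry these transcripts were summed as shares of all counts, and their part in the values of the members was not tested. The 14 B cell markers stood at 136 to 268 CPM in flox vehicle, 235 to 326 in KO vehicle, 175 to 855 in flox MTX and 256 to 767 CPM in KO MTX libraries, and 7 of 14 rose with MTX in flox mice. Ms4a1, which marks B cells, had 32 to 1046 counts. The highest Ms4a1 counts were those of flox MTX replicate 2 (1046) and KO MTX replicate 3 (846), the libraries with the most Ighd and Ighg3, whereas KO MTX replicate 2 had 39 counts of Ms4a1 beside 3050 of Ighg2b. The 15 plasma cell markers stood at 345 to 436 CPM in flox vehicle and 403 to 499 CPM in KO vehicle libraries. With MTX they stood at 405 to 1545 CPM in flox and 530 to 786 CPM in KO libraries. The sum does not measure plasma cells alone. Flox vehicle replicate 3 had 364 CPM of these markers with only 104 counts of Jchain (4.08 CPM, TMM-scaled). Of the 15, 7 rose with MTX in flox mice, where 1513 of all 18702 genes tested were called higher. Flox MTX replicate 2 had the highest sum of B cell and of plasma cell markers among the 12 libraries (855 and 1545 CPM). Flox MTX replicate 1, with 7349 counts of Igha, stood at 175 CPM for B cell and 405 CPM for plasma cell markers. Flox vehicle replicates 1, 3 and 4 had 273, 137 and 280 counts of Igha. Their sums were 268, 136 and 211 CPM for B cell and 436, 364 and 345 CPM for plasma cell markers. Both sums of flox MTX replicate 1 thus lay within the range of the flox vehicle libraries. Sdc1, which is also made outside plasma cells, did not pass there (0.67 ± 0.41, edgeR adjusted p = 0.272) and rose in KO against flox mice under vehicle (1.79 ± 0.42, adjusted p = 0.00911).

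Other cell types moved in the same comparison of flox mice, and their part in the values of the members was not tested. With MTX 9 of 10 macrophage, 6 of 10 T cell and 7 of 8 mesothelium markers tested rose. So did 5 of 6 red blood cell and 2 of 5 lymphoid stroma markers, whereas 10 of 12 epididymis markers fell. Of all 18702 genes tested 1513 were called higher and 3015 lower. Macrophage markers summed to 469 to 908 CPM in flox vehicle and 610 to 3534 CPM in flox MTX libraries, which overlapped. Flox MTX replicate 2 had the highest macrophage, T cell, mesothelium and red blood cell sums of its group. Mesothelium summed to 105 to 196 CPM in flox vehicle and 233 to 535 in flox MTX libraries, against 163 to 255 in KO vehicle and 145 to 324 CPM in KO MTX libraries. T cell markers summed to 13.3 to 21.7, 20.8 to 37.1, 24.3 to 99.2 and 38.2 to 80.6 CPM in flox vehicle, KO vehicle, flox MTX and KO MTX libraries. Red blood cell markers summed to 72.9 to 146, 60.3 to 578, 137 to 1139 and 140 to 511 CPM in the same order. Lymphoid stroma summed to 193 to 372, 121 to 220, 249 to 295 and 114 to 238 CPM. Endothelial, adipocyte and skeletal muscle markers had no gene called with MTX in flox mice, at 256 to 497, 27826 to 39373 and 31.3 to 50.6 CPM in flox MTX libraries. Intestinal epithelium, which could bring IgA plasma cells with it, had marker sums of 11.8 to 28.3 CPM in flox MTX and 24.8 to 45.1 CPM in flox vehicle libraries. In KO mice they were 24.8 to 34.2 CPM with MTX and 34.0 to 45.4 CPM with vehicle. Of 5 tested, 1 was lower with MTX in flox mice and none higher. Only 3 to 5 of the 10 listed exceeded 3 counts in a library, so these sums rest on few genes.

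The genes outside the immunoglobulin loci whose log2 CPM was most like that of Igha over the 12 libraries were Ogfr (Pearson r = 0.958), Marco (0.948), Xcr1 (0.929), F8a (0.922) and Kdelr1 (0.917). Marco, a scavenger receptor of macrophages, rose with MTX in flox mice (2.33 ± 0.43, edgeR adjusted p = 0.00656), and Xcr1, a chemokine receptor of dendritic cells, rose too (1.10 ± 0.27, edgeR adjusted p = 0.0177). The genes most like Ighm were Rab30 (0.902), Zfp367 (0.883), Gm37691 (0.880), Cnmd (0.880) and Abca1 (0.878). The points share the group differences and the depth of their libraries, and such values are the top of 18702 genes.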

How the data were processed

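RNA of eWAT from 12 mice was sequenced by the authors, 1 library per mouse. The labels name polyA RNA, whereas the methods describe ribosomal depletion and paired reads of 100 bases. Per the labels and methods, reads were trimmed (Trimmomatic 0.36), aligned to GRCm38 with Ensembl transcripts (STAR 2.5.2b) and counted per gene (featureCounts, Subread 1.5.2). The deposited values are raw counts, with no normalization by the authors. Strand setting and multi-mapping reads are not given in the sources used here. Genes without a symbol hold 0.0688% of counts.

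The fit used edgeR 4.0.16 in R 4.3.3 (TMM, filterByExpr by group, 1 coefficient per group over 12 libraries, quasi-likelihood F-test, Benjamini-Hochberg over 18702 genes). Residual degrees of freedom were 8. A gene was called at an adjusted p under 0.1 if it also changed 1.5-fold or more, one reading of the limit in the methods. CPM of members are TMM-scaled, and summed marker lists are shares of all counts. Lengths, coordinates and sequences come from GENCODE M21 (GRCm38), not the release the authors counted with. Identity was computed from global alignments (Biopython 1.88). Wilson intervals cover counting error. Log2 CPM used a prior count of 2.

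Named genes were the members, Iglc2, Iglc3, Jchain, Pigr, Mzb1, Sdc1, Tnfrsf17, Cd79a and Ms4a1, with others of the rule not reported here, the called pathway gene with the largest fold in each direction of a comparison, and the 5 genes most correlated with Igha and with Ighm. Batf was named after its values were seen. The members and lists were chosen with earlier results of these data known. The lists overlap: Cd79a, Cd79b, Fcer2a, Fcgr1, Jchain, Mzb1, Tnfrsf13b and Tnfrsf17 stand in both pathway and marker lists. The procedure was tested on simulated counts of the comparison of MTX with vehicle in KO mice, where 18286 genes held 200 with a 4-fold change. Of the latter edgeR found 184 (22 false calls) and DESeq2 1.42.0 found 184 (56 false calls). Every gene was simulated with the same dispersion, 0.1. The recovery of genes that spread more widely between mice, as the IgG genes did, was not tested. No libraries were duplicates, with a lowest chi-square over degrees of freedom of 14.1 among 12 pairs. Alternatives were DESeq2, RLE factors, library size alone, other filters and limits, a replicate block, fits of only the groups compared, and each library left out.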

Additional observations from a re-analysis of the deposited data

Results flagged for a closer look

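The response of Igha to MTX differed between the genotypes by the interaction term of the edgeR fit. The log2 fold change of the interaction was -4.41 ± 0.88 (SE), from 7.24 in flox and 2.82 in KO mice. The family was chosen with such values known, so this is a description. Of 19 other fits 7 kept the call, and the value stayed negative, between -4.89 and -3.43.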

How the results depend on the processing

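Of the 9 members tested, the number called depended on the setting. Under vehicle KO against flox mice gave 0, against 1 (Igha) with DESeq2, with only the groups compared and, in a setting chosen after seeing the data, without flox MTX replicate 2 and KO MTX replicate 3. Under MTX this contrast gave 0, against 2 with DESeq2 and 1 without a filter, with a minimum of 10 counts throughout and without these 2 libraries. MTX against vehicle gave 5 in flox mice, against 1 with the replicate block, 2 with only the groups compared and 2 without these 2 libraries. In KO mice it gave 0, against 1 with DESeq2 and 2 with only the groups compared. The interaction gave 1, against 0 with at least 10 counts, the replicate block, an adjusted p below 0.05 and without these 2 libraries. Leaving out each library gave 0 to 1 for each genotype contrast and the interaction, 1 to 6 for MTX in flox and 0 for MTX in KO mice. The pathway genes called under MTX between genotypes were 0, against 13 with DESeq2, 3 without a filter, 5 with at least 10 counts, 5 without the 2 libraries and 0 to 22 with each library left out (22 without flox MTX replicate 2). Under vehicle they were 31, against 19 with the replicate block, 13 with a log2 limit of 1.5 and 19 to 32 with each library left out. For MTX in flox mice they were 27, against 17 with at least 10 counts, 8 with the block, 8 with only the groups compared and 9 to 36 with each library left out, the lowest leaving out flox vehicle replicate 3, with 15 leaving out flox MTX replicate 2. For the interaction they were 0, against 2 with DESeq2 and 0 to 1 with each library left out. The cause of these shifts was not tested.

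The mean Igha share of flox vehicle libraries (1.12%) was 0.787% per kb. Without Ighm and Ighd, a setting chosen after seeing the data, the means were 28.9%, 51.4%, 76.9% and 52.2% in flox vehicle, KO vehicle, flox MTX and KO MTX mice. With each library left out the mean share of Igha was 0.967% to 1.21%, 2.60% to 5.202%, 30.3% to 39.1% and 14.1% to 19.3% in these groups. The summed heavy-chain CPM (means 898, 641, 4137 and 1072) stayed within 1 SD in all 24 alternatives, and was 2271 in flox MTX mice without replicate 2.

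Over all genes, calls under MTX between genotypes were 0, against 2769 with DESeq2, 875 without a filter, 1491 with at least 10 counts and 4 with only the groups compared, and for MTX in KO mice 0, against 281, 20, 0 and 3. For MTX in flox mice 4528 fell to 2198, 2771 (block), 2167 (only the groups compared) and 2791 (log2 limit), and for the interaction 185 became 1248 with DESeq2, 472 without a filter, 1 with at least 10 counts, 0 with the block and 33 at 0.05. The log2 limit left 3026 of 5924 under vehicle. Library size alone moved the median of all genes by -0.20 (log2) for MTX in flox mice and by 0.17 between the genotypes under MTX, and gave 766 higher and 3607 lower genes against 1513 and 3015 with TMM. Equal replicate numbers were not taken to mark paired mice. Residuals of 12 same-numbered pairs correlated with a median r of 0.035 (-0.273 to 0.254). The median was 0.011 in 42 others (-0.379 to 0.454). These ranges are too wide to exclude pairing.

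Depth limits Pigr, Tnfrsf17 and Ighe, with at most 69 counts in a library.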
